A study of Mus musculus with 9 samples.

Results

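H19, Igf2 and Igf2r are 3 imprinted genes of the mouse insulin-like growth factor system, and their transcript levels were read in all 9 RNA sequencing libraries of a study of primary mouse articular chondrocytes, the cells of joint cartilage. They were picked by gene symbol, 3 of 55450 genes listed in each library, and all 3 passed the filter on low values, 1 FPKM or more in 3 or more libraries, that left 12441 genes for testing. They were chosen with their differences between the treatment groups in these same libraries known. Their levels, and the ratio of H19 to Igf2, are therefore described with their errors and without a test. FPKM is the number of fragments scaled by exon length and by library size. Levels of different genes can thus be set side by side, although the exon lengths used are not given.

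The 9 libraries fall into 3 groups of 3. The cells labelled bleomycin plus ST045849 received 50 µg/mL bleomycin, a DNA-cleaving drug used to drive cells into senescence, for 24 h, and then 20 µM ST045849, an inhibitor of the O-GlcNAc transferase OGT, for 5 days. The bleomycin cells received the same dose of bleomycin and then DMSO, the solvent, for the same 5 days. The vehicle cells received PBS in place of bleomycin and then DMSO. All cells had first been treated with hyaluronidase at 4 U/mL for 4 h and were kept in 10% serum at 3% O2, with fresh medium every 48 h. Cells given ST045849 without bleomycin are not part of this comparison, and the labels used here give no strain, age or sex of the mice. Nor do they tell if replicate libraries stem from different mice or cultures. Bulk RNA was measured, so fewer cells of a type and less RNA per cell cannot be told apart.

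H19 and Igf2 lie next to each other and are imprinted in opposite ways. H19, a long non-coding RNA, is transcribed from the maternal copy, and Igf2, a secreted growth factor, from the paternal copy. A control region between them is bound by the insulator protein CTCF on the maternal chromosome, which keeps shared enhancers on H19, and is methylated on the paternal chromosome, which gives them to Igf2. Igf2r, the cation-independent mannose 6-phosphate receptor, is maternally expressed in most mouse tissues, clears IGF2 by carrying it to lysosomes and also sorts lysosomal enzymes. It sends no growth signal of its own, whereas Igf1r and Insr, the receptor tyrosine kinases of the system, do.

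In the GRCm38 build with the GENCODE vM21 annotation, H19 (ENSMUSG00000000031, long intergenic non-coding RNA) lies on the minus strand at chr7:142575529-142578143. Igf2 (ENSMUSG00000048583, protein coding) lies on the same strand at chr7:142650766-142666816, and its start is 88.7 kb from that of H19. Igf2r (ENSMUSG00000023830, protein coding) lies on the minus strand at chr17:12682406-12769664. Their exons cover 2460, 5723 and 9308 bases. The gene Gm49394 shares 62.83% of the exon bases of Igf2 on the same strand but was listed at no more than 0.0636 FPKM in any library.

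H19 is also the host of a microRNA, miR-675, which is cut from its first exon in mouse and is known to act on Igf1r in the placenta. It is shown here because Igf1r was measured in the same libraries, whereas the mature microRNA cannot be read from poly(A) libraries. The RefSeq hairpin (GRCm38.p6, chr7:142577064-142577147, minus strand) is contained in 3 of the 7 annotated H19 transcripts, among them H19-202, where it spans bases 997 to 1080 of 2286. In the hairpin both mature arms are in capitals, and in the mature arms the seed (bases 2 to 8) is in capitals. No other mature mouse microRNA in the RefSeq table has either seed.
Mir675 hairpin: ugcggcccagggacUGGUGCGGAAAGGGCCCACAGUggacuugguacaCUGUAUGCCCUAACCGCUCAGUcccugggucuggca
miR-675-5p: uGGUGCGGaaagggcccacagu
miR-675-3p: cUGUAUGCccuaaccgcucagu
The 3′ UTR of Igf1r (Igf1r-201, 7267 bases) holds 2 stretches complementary to the seed of the 3p arm, in capitals below with their neighbouring bases, and 0 for the 5p arm. Of 11348 tested genes with an annotated 3′ UTR, 7.97% hold the 3p match and 2.21% the 5p match. These shares take no account of UTR length, and a longer UTR holds more such matches by its length alone. A match of letters is a description and not a proven site. The base number given with each stretch is that of its first capital letter, and the small letters before it lie upstream of that base.
Igf1r 3′ UTR from base 505: ctcatcaccccGCATACAcctgcctgaca
Igf1r 3′ UTR from base 1264: gtgaaacatttGCATACAcatcgtcttta

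The cultures carried the markers of their label. The 9 chondrocyte markers, among them Col2a1, Acan and Sox9, all passed the filter and summed to 15257 to 22083 FPKM in bleomycin plus ST045849 cells, 18399 to 26682 FPKM in bleomycin cells and 24365 to 34639.8 FPKM in vehicle cells. The 7 fibroblast or synovial markers, among them Thy1 and Col1a1, summed to 1554 to 2900.3 FPKM in bleomycin plus ST045849 cells, 2695 to 3772 FPKM in bleomycin cells and 1749.7 to 2422 FPKM in vehicle cells. The 7 macrophage or other leukocyte markers summed to 7.73 to 13.4 FPKM in bleomycin plus ST045849 cells, 6.74 to 8.78 FPKM in bleomycin cells and 1.76 to 3.58 FPKM in vehicle cells, with Tyrobp and C1qb at 0 in every library. The 7 skeletal muscle markers summed to 5.34 to 11.2 FPKM in bleomycin plus ST045849 cells, 4.41 to 6.16 FPKM in bleomycin cells and 2.73 to 3.55 FPKM in vehicle cells. Adipocyte markers summed to 23.1 to 30.6, 11.3 to 16.6 and 7.14 to 17.3 FPKM in bleomycin plus ST045849, bleomycin and vehicle cells, osteoblast markers to 14.2 to 54.1, 34.4 to 96.7 and 12.6 to 29.7 FPKM, and endothelial markers to no more than 0.566 FPKM. The chondrocyte sum rests mostly on Col2a1, and its members did not all take the order of the sum. Matn1, Comp and Snorc differed by 0.22, 0.06 and 0.16 on the log2 scale between bleomycin and vehicle. In bleomycin plus ST045849 against vehicle they differed by 0.47, 0.33 and 0.62, and none of them was called in either comparison. Acan (log2 difference -1.66, adjusted p = 0.00657, limma) and Col11a1 (-1.42, adjusted p = 0.0388) were lower in bleomycin plus ST045849 than in vehicle. In bleomycin against vehicle Acan differed by -1.03 (adjusted p = 0.0653) and was not called. Of the fibroblast markers, Thy1 (log2 difference 1.49, adjusted p = 0.0311, limma) and Twist1 (1.02, adjusted p = 0.015) were higher in bleomycin plus ST045849 than in vehicle, where the ranges of the sum overlapped. Thy1 (2, adjusted p = 0.0126) and Twist1 (0.94, adjusted p = 0.0297) were also higher in bleomycin than in vehicle. The fibroblast markers did not all go this way. In bleomycin plus ST045849, Col1a1, Pdgfra, Col3a1 and Pdpn stood -0.28, -0.49, 0.06 and 0.89 from vehicle and were not called. The part of these markers in the levels below was not tested. Libraries of a group correlated at 0.936 to 0.954 for bleomycin plus ST045849, 0.97 to 0.974 for bleomycin and 0.961 to 0.979 for vehicle over the tested genes. FPKM sums ran from 340303 to 483953, and the files hold no counts, so no counting error is given.

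H19 was among the most abundant transcripts of these cells and stood lower in both bleomycin groups than in vehicle. It measured 1913, 2752 and 2189 FPKM in the 3 bleomycin plus ST045849 libraries, 1495, 1655 and 1731 FPKM in the 3 bleomycin libraries, and 3622, 5141 and 4980.5 FPKM in the 3 vehicle libraries. No 2 groups overlapped. H19 ranked 11 to 14 among all genes in bleomycin plus ST045849 cells, 12 to 19 in bleomycin cells and 3 to 5 in vehicle cells. It took 0.468 to 0.569% of the summed FPKM in bleomycin plus ST045849 cells, 0.419 to 0.475% in bleomycin cells and 0.891 to 1.51% in vehicle cells. H19 averaged 2285 ± 427 FPKM in bleomycin plus ST045849 cells, 1627 ± 121 FPKM in bleomycin cells and 4581 ± 834 FPKM in vehicle cells (SD, n = 3 each).

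On the log2(FPKM + 1) scale H19 differed by -1.48 ± 0.27 (SE) between bleomycin and vehicle, a fold of 0.359. Bleomycin plus ST045849 stood -1 ± 0.27 from vehicle, a fold of 0.499, and 0.48 ± 0.27 from bleomycin, a fold of 1.39. The SD within groups on this scale was 0.23. Between libraries of the same number, H19 with ST045849 stood 0.36, 0.73 and 0.34 above H19 with bleomycin alone. As these groups did not overlap, any matching of their libraries gives the same sign, so nothing is read from it. The order of levels was thus vehicle, then bleomycin plus ST045849, then bleomycin, with the closest libraries of the last pair at 1913 and 1731 FPKM. The difference between that pair was 0.24 ± 0.24 once the trend with gene length was removed from each library, and 0.13 under quantile normalization.

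**Figure D1:**
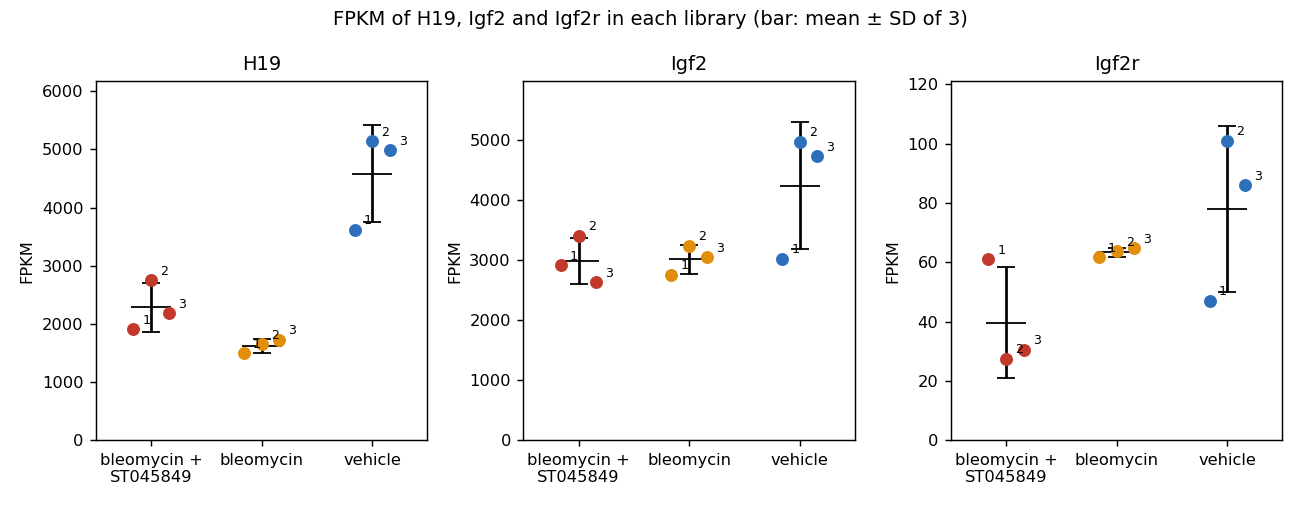
FPKM (linear axes from 0) of H19, Igf2 and Igf2r in the bleomycin plus ST045849, bleomycin and vehicle libraries, with replicate numbers beside the points and the mean ± SD of 3 libraries in black. H19 separates the 3 groups, with vehicle at 3622 to 5141 FPKM, whereas Igf2 overlaps between all of them and Igf2r spreads from 27.5 to 61.1 FPKM within the ST045849 group.

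Igf2, the growth factor of the pair, was also among the most abundant transcripts, and its groups overlapped. It measured 2924, 3411 and 2638 FPKM in bleomycin plus ST045849 libraries, 2761, 3246 and 3055 FPKM in bleomycin libraries, and 3029.6, 4980.1 and 4735 FPKM in vehicle libraries. Vehicle library 1 lay within the range of the treated libraries, whereas vehicle libraries 2 and 3 lay above all of them, so that every pair of groups overlapped. Igf2 averaged 2991 ± 390.5 FPKM in bleomycin plus ST045849 cells, 3021 ± 244 FPKM in bleomycin cells and 4248 ± 1063 FPKM in vehicle cells (SD, n = 3 each). The log2 differences were -0.46 ± 0.28 (SE) for bleomycin against vehicle, -0.48 ± 0.28 for bleomycin plus ST045849 against vehicle and -0.02 ± 0.28 for bleomycin plus ST045849 against bleomycin. The SD within groups on the log2 scale was 0.26. The difference between bleomycin plus ST045849 and bleomycin ran from -0.47 to 0.12 over the alternative settings, with its sign depending on the scaling. Igf2 ranked 8 to 11 in bleomycin plus ST045849 cells, 5 to 6 in bleomycin cells and 4 to 6 in vehicle cells, so Igf2 outranked H19 in every bleomycin-treated library, while H19 outranked Igf2 in every vehicle library.

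Igf2r, the receptor that clears IGF2, was expressed far below its ligand and varied most between libraries. It measured 61.1, 27.5 and 30.5 FPKM in bleomycin plus ST045849 libraries, 61.7, 63.8 and 64.7 FPKM in bleomycin libraries, and 47, 101 and 85.9 FPKM in vehicle libraries. ST045849 library 1 lay just under the bleomycin libraries and the other 2 lay far under them, while the vehicle libraries lay on both sides of the bleomycin libraries. Igf2r averaged 39.7 ± 18.6 FPKM in bleomycin plus ST045849 cells, 63.4 ± 1.55 FPKM in bleomycin cells and 78.1 ± 28 FPKM in vehicle cells (SD, n = 3 each). The log2 differences were -0.23 ± 0.34 (SE) for bleomycin against vehicle, -0.75 ± 0.34 for bleomycin plus ST045849 against bleomycin and -0.98 ± 0.34 for bleomycin plus ST045849 against vehicle. Without ST045849 library 1, the last 2 were -1.10 and -1.33, and without vehicle library 1 the first was -0.55.

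Igf2r moved with a property of the libraries. In each library the slope of log2 FPKM, relative to the mean of all libraries, on the log2 of exon length was computed over all tested genes. It was 0.019, -0.212 and -0.139 per doubling of length in bleomycin plus ST045849 libraries, 0.097, 0.038 and 0.093 in bleomycin libraries, and -0.072, 0.101 and 0.075 in vehicle libraries. The 3 libraries with a slope below 0 were the 3 with the lowest Igf2r, a transcript with long exons. With the length trend removed, Igf2r in bleomycin plus ST045849 cells stood -0.39 ± 0.25 from bleomycin and -0.63 ± 0.25 from vehicle, and its values of 5.25 to 5.96 on the log2 scale overlapped the 5.79 to 5.99 of bleomycin cells.

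**Figure D2:**
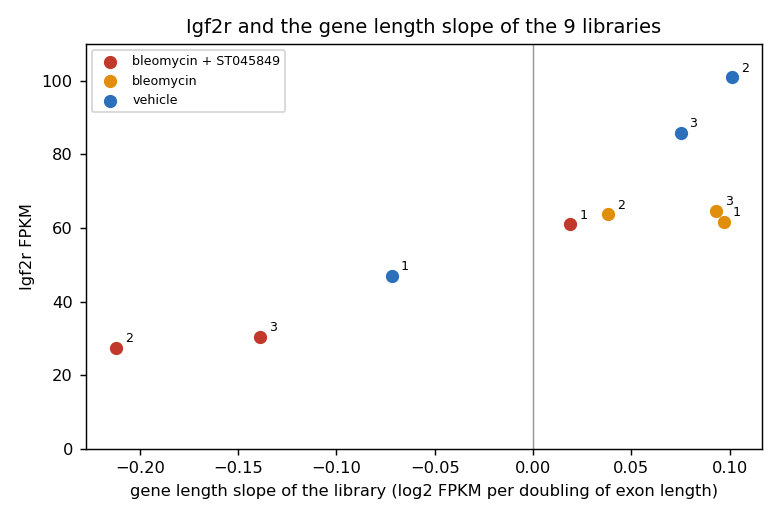
FPKM of Igf2r in each of the 9 libraries (vertical axis, linear from 0) against the slope of that library's log2 FPKM on gene length (horizontal axis, per doubling of exon length), coloured by group and numbered by replicate. The 3 points left of 0 are the 3 lowest for Igf2r, at 27.5, 30.5 and 47 FPKM.

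In all, the groups did not overlap for 1 of the 3 genes in bleomycin against vehicle (H19, lower), where 28.0% of all tested genes did not overlap, 21.4% higher and 6.53% lower. They did not overlap for 2 of 3 in bleomycin plus ST045849 against bleomycin (H19 higher and Igf2r lower), against 25.2% of all tested genes, 16.5% higher and 8.67% lower, and for 1 of 3 in bleomycin plus ST045849 against vehicle (H19, lower), against 27.7%, 21.0% higher and 6.66% lower. Since the genes were chosen on these contrasts, nothing is read from these counts. The 3 comparisons share their groups in pairs and are not independent of each other.

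The ratio of H19 to Igf2 compares 2 transcripts within a library and so does not depend on how the libraries are scaled to each other. It was 0.654, 0.807 and 0.83 in bleomycin plus ST045849 libraries, 0.541, 0.51 and 0.567 in bleomycin libraries, and 1.2, 1.03 and 1.05 in vehicle libraries. H19 exceeded Igf2 in every vehicle library and in no treated one, and no 2 groups overlapped. Which of the 2 transcripts is the higher depends on the exon lengths used for FPKM, which are not given. The ratio averaged 0.764 ± 0.0952 in bleomycin plus ST045849 cells, 0.539 ± 0.0284 in bleomycin cells and 1.09 ± 0.0892 in vehicle cells (SD, n = 3 each). In log2 terms the ratio differed by -1.02 ± 0.11 (SE) between bleomycin and vehicle, a fold of 0.494. It differed by -0.52 ± 0.11 between bleomycin plus ST045849 and vehicle, a fold of 0.696, and by 0.50 ± 0.11 between bleomycin plus ST045849 and bleomycin, a fold of 1.41.

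The ratio was also computed with the gene length trend removed from each library, since H19 and Igf2 differ in exon length. On that scale the difference between bleomycin and vehicle was -0.98 ± 0.08, and that between bleomycin plus ST045849 and vehicle was -0.87 ± 0.08. That between bleomycin plus ST045849 and bleomycin was 0.12 ± 0.08. The corrected log2 ratios were -0.59, -0.76 and -0.56 in bleomycin plus ST045849 libraries, -0.71, -0.90 and -0.66 in bleomycin libraries, and 0.15, 0.28 and 0.26 in vehicle libraries. On this scale the bleomycin groups overlapped each other, and both lay below vehicle.

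**Figure D3:**
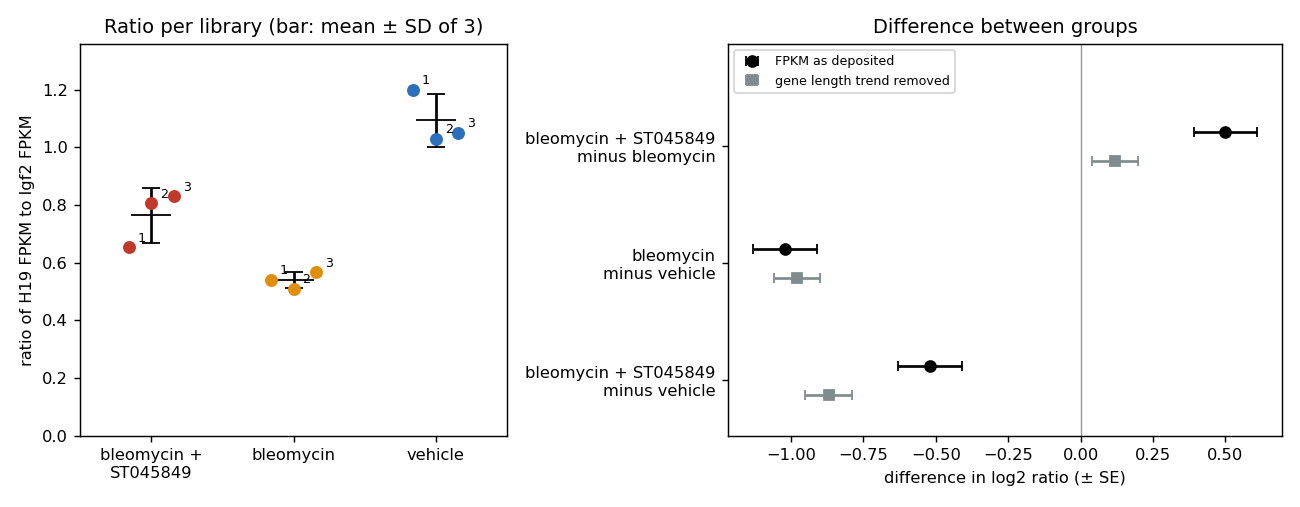
Left, the ratio of H19 FPKM to Igf2 FPKM in each library (linear axis from 0), with mean ± SD of 3 in black. Right, the difference in log2 ratio ± SE between groups, from FPKM as deposited (black circles) and with the gene length trend removed (grey squares): bleomycin minus vehicle is -1.02 and -0.98, whereas bleomycin plus ST045849 minus bleomycin is 0.50 and 0.12.

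Genes around H19 and Igf2 on distal chromosome 7 were examined next. Of 28 neighbours, 22 were tested. With limma and a call at an adjusted p under 0.05, 2 rose and 2 fell in bleomycin against vehicle, where 4.88% of all tested genes were called. The 2 that fell lie close together on the far side of H19 from Igf2. Tnni2, a troponin I of fast skeletal muscle 136.3 kb from the H19 start, measured 1.04, 1.58 and 1.48 FPKM in bleomycin plus ST045849 cells, 0.824, 0.568 and 0.754 FPKM in bleomycin cells and 3.26, 3.29 and 3.38 FPKM in vehicle cells. It thus took the same order of groups as H19, at levels near the filter. It fell by 1.33 ± 0.16 on the log2 scale (SE, adjusted p = 0.00256) in bleomycin cells and by 0.87 ± 0.16 (adjusted p = 0.00919) in bleomycin plus ST045849 cells against vehicle, and both calls held without any single library.

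Syt8, a synaptotagmin gene 143.3 kb away, fell by 1.48 ± 0.33 (adjusted p = 0.0304) in bleomycin against vehicle. It measured 3.24, 5.5 and 3.32 FPKM in bleomycin plus ST045849 cells, 2.61, 2.86 and 1.91 FPKM in bleomycin cells, and 16.3, 5.7 and 6.66 FPKM in vehicle cells, where library 1 stood apart. Without any 1 of the bleomycin libraries, or without vehicle library 1 or 3, its adjusted p passed the threshold, reaching up to 0.11, and with no filter on low values it was 0.0992. Of the genes between Tnni2 and H19 none was called: Lsp1 differed by -0.63 (adjusted p = 0.382), Tnnt3 by -0.44 (adjusted p = 0.26) and Mrpl23 by -0.23 (adjusted p = 0.755). Igf2os, an antisense transcript at Igf2, differed by -0.63 (adjusted p = 0.167). Nctc1, 19.5 kb away, was listed at 0 in 8 libraries and at 0.048 FPKM in the other.

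The 2 that rose lie on the other side of H19, beyond Igf2. Slc22a18, an imprinted transporter gene 895.6 kb from the H19 start, measured 3.4, 5.74 and 3.69 FPKM in bleomycin plus ST045849 cells, 3.23, 3.41 and 2.34 FPKM in bleomycin cells and 1.49, 1.23 and 0.947 FPKM in vehicle cells. It rose by 1.23 ± 0.21 (adjusted p = 0.00674) in bleomycin plus ST045849 cells and by 0.84 ± 0.21 (adjusted p = 0.0461) in bleomycin cells, both against vehicle. The second call was lost without ST045849 library 3 or any 1 bleomycin or vehicle library, at an adjusted p of up to 0.184. It was also lost with no filter on low values, under median-of-ratios scaling, under quantile normalization and with an untrended prior (up to 0.162). Cd81, a tetraspanin 474.6 kb away, rose by 0.93 ± 0.22 (adjusted p = 0.0354) in bleomycin cells and by 0.85 ± 0.22 (adjusted p = 0.0353) in bleomycin plus ST045849 cells. The first call was lost without any 1 bleomycin or vehicle library (adjusted p up to 0.167), and the second without any library but ST045849 library 1 (up to 0.117). With no filter or under median-of-ratios scaling the first call was lost as well (up to 0.0911). The second was lost in 7 of 12 other settings, which were these, quantile normalization, TPM, a fit of the 2 groups and removal of the length trend with or without a replicate block (up to 0.138).

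In bleomycin plus ST045849 against vehicle, 3 of the 22 neighbours rose and 1 fell, where 9.85% of all tested genes were called. The third riser, Ctsd, encodes cathepsin D, a lysosomal protease and a cargo of mannose 6-phosphate receptors. Its start lies 190.1 kb from that of H19, on the same side as Tnni2 and Syt8 and unlike the other risers. It measured 1161, 1600.3 and 1154 FPKM in bleomycin plus ST045849 cells, 1007, 988 and 826 FPKM in bleomycin cells and 699, 619.9 and 552 FPKM in vehicle cells. The rise was 1.05 ± 0.24 (adjusted p = 0.0228) and was lost without ST045849 library 2 or vehicle library 2 or 3 (adjusted p up to 0.113), and with no filter, under median-of-ratios scaling or in a fit of the 2 groups (up to 0.0925). The gene Gm49369 shares 34.37% of its exon bases but was listed at no more than 0.961 FPKM. Cdkn1c, an imprinted inhibitor of cyclin-dependent kinases 882.9 kb away, measured 633, 776 and 845 FPKM in bleomycin plus ST045849 cells, 489, 529 and 399.9 FPKM in bleomycin cells and 488, 921 and 745 FPKM in vehicle cells. It was not called in any comparison, at adjusted p = 0.209 between bleomycin plus ST045849 and bleomycin. The median log2 difference over the 22 neighbours was -0.16 in bleomycin against vehicle, where that of all tested genes was 0.10, and 0.31 in bleomycin plus ST045849 against vehicle, where that of all tested genes was 0.19.

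**Figure D4:**
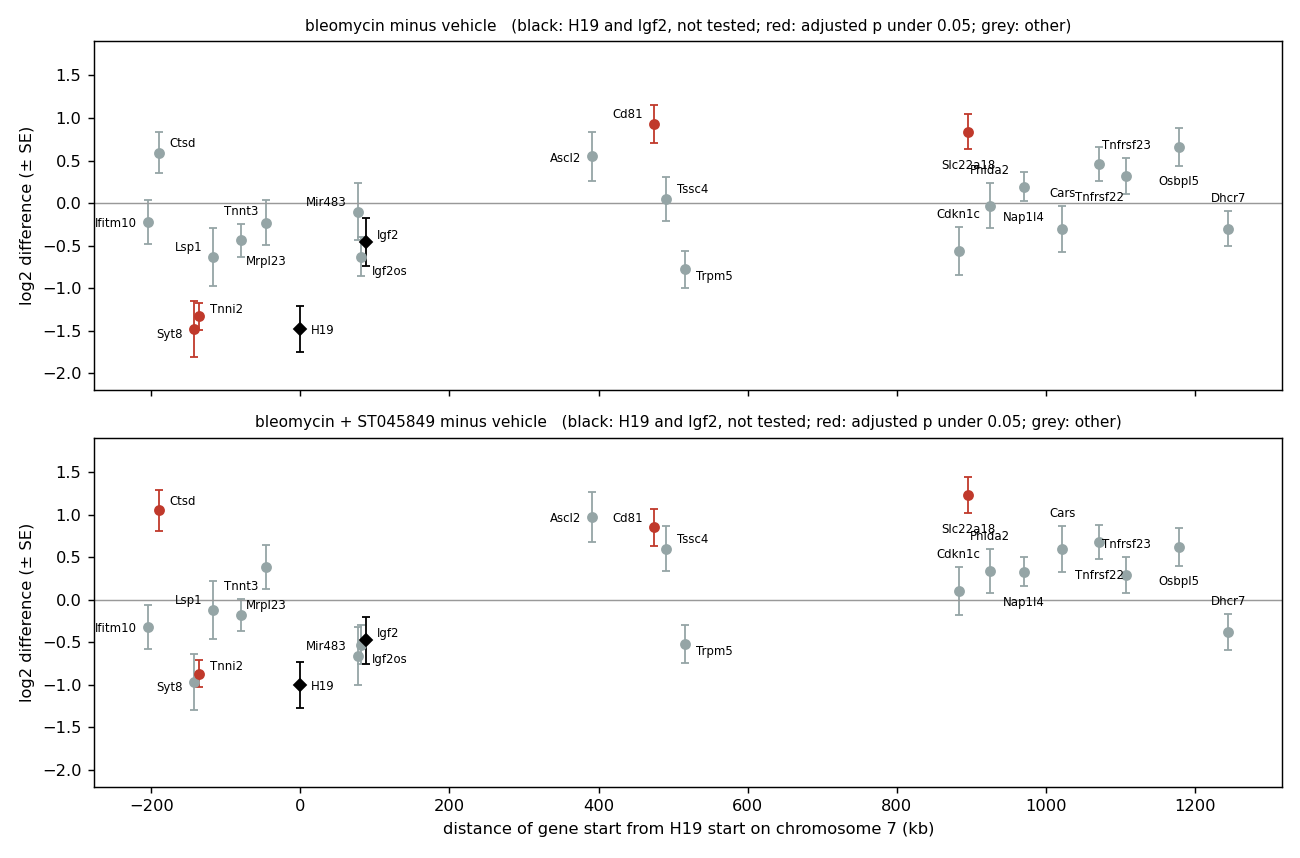
log2 difference ± SE of H19, Igf2 (black, not tested) and the 22 tested neighbours on chromosome 7 by the distance of their start from that of H19, with genes at an adjusted p under 0.05 in red and the others in grey. Tnni2 at -1.33 and Syt8 at -1.48 stand beside H19 at -1.48 in bleomycin against vehicle (above), and Ctsd, Cd81 and Slc22a18 stand above 0 in bleomycin plus ST045849 against vehicle (below).

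Around Igf2r on chromosome 17, 7 of 13 neighbours were tested, and limma called 0 in each of the 3 comparisons, with 0 at an unadjusted p under 0.05. Of all tested genes, 4.88% were called in bleomycin against vehicle, 0% between the bleomycin groups and 9.85% in bleomycin plus ST045849 against vehicle. At an unadjusted p under 0.05 stood 17.4%, 22.5% and 31.1% of them, in the same order. Airn, the paternally expressed antisense RNA that silences Igf2r on the paternal chromosome, measured 9.92, 10.9 and 7.96 FPKM in bleomycin plus ST045849 cells, 9.32, 8.6 and 8.54 FPKM in bleomycin cells and 5.27, 9.91 and 9.4 FPKM in vehicle cells. Its differences were 0.14 ± 0.23 (adjusted p = 0.847) for bleomycin against vehicle and 0.10 ± 0.23 (adjusted p = 0.796) for bleomycin plus ST045849 against bleomycin. The most abundant neighbour, Tcp1, a subunit of the cytosolic chaperonin, differed by -0.20 (adjusted p = 0.785) and 0.38 (adjusted p = 0.359) in the same comparisons.

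Among the ligands, receptors and adaptors of the IGF axis, 12 of 15 genes were tested, and limma called 0 in each comparison. The called share of all tested genes was 4.88% in bleomycin against vehicle, 0% between the bleomycin groups and 9.85% in bleomycin plus ST045849 against vehicle. The counts at an unadjusted p under 0.05 were 2 for bleomycin against vehicle, 3 for bleomycin plus ST045849 against bleomycin and 3 for bleomycin plus ST045849 against vehicle, where 17.4%, 22.5% and 31.1% of all tested genes stood under it in the same comparisons. Of the other ligands, Igf1 stood at 1.86 to 3.59 FPKM in bleomycin plus ST045849 cells, 1.85 to 5.36 FPKM in bleomycin cells and 2.06 to 2.7 FPKM in vehicle cells, far under Igf2. Ins2, the insulin gene next to Igf2, was listed at 0 in 8 libraries and at 0.109 FPKM in ST045849 library 2. Igf1r, the receptor through which IGF2 signals, measured 8.84, 5.06 and 6.11 FPKM in bleomycin plus ST045849 cells, 12.2, 9.71 and 12 FPKM in bleomycin cells and 5.64, 9.55 and 8.48 FPKM in vehicle cells. The bleomycin libraries thus lay above all others for this gene. The differences of 0.49 ± 0.24 against vehicle (adjusted p = 0.328) and of -0.71 ± 0.24 for bleomycin plus ST045849 against bleomycin (adjusted p = 0.203) were not called. A link of these levels to H19 or to the miR-675-3p matches shown above was not tested.

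Insr, the insulin receptor, differed by 0.14 (adjusted p = 0.885) between bleomycin and vehicle and by -0.77 ± 0.30 (adjusted p = 0.204) between bleomycin plus ST045849 and bleomycin. Like Igf2r, Igf1r and Insr have long exons, of 16791 and 13746 bases, and lay low in ST045849 libraries 2 and 3. Grb10, an imprinted adaptor that restrains insulin and IGF receptors and the gene of the list with the highest mean over the 9 libraries, measured 159.5, 79.3 and 143 FPKM in bleomycin plus ST045849 cells, 152, 162 and 174 FPKM in bleomycin cells and 158, 228 and 204 FPKM in vehicle cells. Its difference between bleomycin plus ST045849 and vehicle was -0.67 ± 0.28 (adjusted p = 0.132).

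Among binding proteins and their proteases, which set how much IGF reaches the receptors, 2 of 11 tested genes rose and 0 fell in bleomycin against vehicle, where 4.20% of all tested genes were called higher and 0.675% lower. Igfbp2, a binding protein with a preference for IGF2, measured 12.2, 14.8 and 24.1 FPKM in bleomycin plus ST045849 cells, 18.1, 20.2 and 23.6 FPKM in bleomycin cells, and 3.79, 3.45 and 3.79 FPKM in vehicle cells. It rose by 2.20 ± 0.24 (adjusted p = 0.00129) in bleomycin cells and by 1.89 ± 0.24 (adjusted p = 0.00182) in bleomycin plus ST045849 cells, and both calls held without any single library. Htra1, a secreted serine protease that cleaves IGF binding proteins and cartilage matrix, rose by 1.03 ± 0.23 (adjusted p = 0.0319) in bleomycin cells. It measured 128, 143 and 167 FPKM in bleomycin plus ST045849 cells, 186, 234 and 290 FPKM in bleomycin cells and 128, 94.3 and 122 FPKM in vehicle cells, and the call was lost without bleomycin library 2 or 3 or any 1 vehicle library (adjusted p up to 0.136) and with no filter (0.0628). In bleomycin plus ST045849 against vehicle, Igfbp2 alone of the 11 was called, where 8.11% of all tested genes were called higher.

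In the mannose 6-phosphate sorting pathway, in which Igf2r works, 14 of 14 genes were tested. The called share of all tested genes was 4.88% in bleomycin against vehicle and 9.85% in bleomycin plus ST045849 against vehicle. Limma called 0 in bleomycin against vehicle, with 0 at an unadjusted p under 0.05 (17.4% of all tested genes), and 1 in bleomycin plus ST045849 against vehicle, with 5 at an unadjusted p under 0.05 (31.1% of all tested genes). That gene, Gnptg, a subunit of the enzyme that starts the mannose 6-phosphate tag, measured 25, 39.3 and 26.6 FPKM in bleomycin plus ST045849 cells, 17.9, 21.7 and 17.6 FPKM in bleomycin cells and 18.1, 12.1 and 12.3 FPKM in vehicle cells. It rose by 1.04 ± 0.23 (adjusted p = 0.0208), a call that was lost without ST045849 library 2 or vehicle library 2 or 3 (adjusted p up to 0.0986), and with no filter, under median-of-ratios scaling, under quantile normalization or in a fit of the 2 groups (up to 0.0561). It shares 49.49% of its exon bases with Unkl on the opposite strand, which was listed at no more than 2.46 FPKM. M6pr, the other mannose 6-phosphate receptor, measured 38.4, 33 and 44.3 FPKM in bleomycin plus ST045849 cells, 34.6, 35.8 and 43.7 FPKM in bleomycin cells and 33, 28.7 and 41.6 FPKM in vehicle cells, and differed by 0.02 ± 0.21 (adjusted p = 0.961) between bleomycin plus ST045849 and bleomycin.

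Imprinted genes of other loci were examined in the same way. The list held 28 genes, including Cdkn1c and Phlda2 of the neighbouring cluster on chromosome 7, and 24 were tested. In bleomycin against vehicle 4 fell and 1 rose, and in bleomycin plus ST045849 against vehicle 7 fell and 2 rose. Over all tested genes the split ran the other way, with 0.675% called lower and 4.20% called higher in bleomycin and 1.74% called lower and 8.11% called higher in bleomycin plus ST045849. Under median-of-ratios scaling 5 of the list fell and 0 rose in bleomycin and 8 fell and 1 rose in bleomycin plus ST045849, while all tested genes split into 151 lower and 320 higher, and 403 lower and 486 higher. With the gene length trend removed, 4 of the list fell and 4 rose in bleomycin plus ST045849 against vehicle, so that the falls no longer outnumbered the rises there. The median log2 difference over the 24 genes was -0.25 in bleomycin against vehicle and -0.32 in bleomycin plus ST045849 against vehicle, where those of all tested genes were 0.10 and 0.19. Several genes called lower are neighbours and need not count separately. Meg3 and Mirg in bleomycin, and Meg3 and Rian in bleomycin plus ST045849, lie together on chromosome 12. Peg3, Usp29 and Zim1, called lower in bleomycin plus ST045849, lie together on chromosome 7. The list was chosen with earlier results of these data known.

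Magel2, a paternally expressed gene of the MAGE family, fell by 1.44 ± 0.24 (adjusted p = 0.00787) in bleomycin cells and by 1.73 ± 0.24 (adjusted p = 0.00291) in bleomycin plus ST045849 cells. It measured 1.73, 1.2 and 2.1 FPKM in bleomycin plus ST045849 cells, 1.98, 2.37 and 2.34 FPKM in bleomycin cells and 5.03, 10.3 and 8.87 FPKM in vehicle cells. Usp29, a paternally expressed ubiquitin protease gene beside Peg3, fell by 1.19 ± 0.21 (adjusted p = 0.0108) in bleomycin cells and by 1.18 ± 0.21 (adjusted p = 0.00834) in bleomycin plus ST045849 cells. The first of these calls was lost without bleomycin library 2 or vehicle library 2 or 3 (adjusted p up to 0.0623), and the second without vehicle library 2 (0.0512) and with the length trend removed (0.0614 at most).

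Meg3, like H19 a maternally expressed long non-coding RNA, measured 121, 119 and 116 FPKM in bleomycin plus ST045849 cells, 249, 126 and 172 FPKM in bleomycin cells and 354, 406 and 344 FPKM in vehicle cells. It fell by 1.62 ± 0.25 (adjusted p = 0.00463) in bleomycin plus ST045849 cells and by 1.06 ± 0.25 (adjusted p = 0.0368) in bleomycin cells. The call in bleomycin was lost without ST045849 library 3, bleomycin library 2 or 3 or any 1 vehicle library (adjusted p up to 0.174), and with no filter, under quantile normalization or as TPM (up to 0.113). The levels of Meg3 with ST045849 lay under those of bleomycin alone, whereas those of H19 lay above them, but the first difference was not called (adjusted p = 0.221) and the second was not tested. The fourth gene that fell in bleomycin, named with its values known, was Mirg, another non-coding RNA of the Meg3 domain, by 1.34 ± 0.32 (adjusted p = 0.0359), a call lost without any 1 bleomycin or vehicle library (up to 0.149) and with no filter (0.104).

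Dcn, the gene of the matrix proteoglycan decorin, rose by 1.21 ± 0.31 (adjusted p = 0.0489) in bleomycin cells, a call lost without ST045849 library 3 or any 1 bleomycin or vehicle library (up to 0.186). It was also lost with no filter, at a mean of at least 5 FPKM, under median-of-ratios scaling, under quantile normalization and as TPM (up to 0.158). Snrpn, which encodes a splicing protein, measured 12.2, 19.7 and 20 FPKM in bleomycin plus ST045849 cells, 7.95, 11 and 10.4 FPKM in bleomycin cells and 6.55, 5.12 and 6.54 FPKM in vehicle cells. It rose by 1.35 ± 0.23 (adjusted p = 0.0065) in bleomycin plus ST045849 cells and held without any single library. It shares 27.28% of its exon bases with Gm38393 and 10% with Snurf on the same strand, which were listed at no more than 0.191 and 0.353 FPKM. Zrsr1, a splicing factor gene, rose by 0.70 ± 0.19 (adjusted p = 0.0422) in the same comparison, a call lost without any library but ST045849 library 1 (up to 0.166) and in 6 of 12 other settings, among them the replicate block (up to 0.165).

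**Figure D5:**
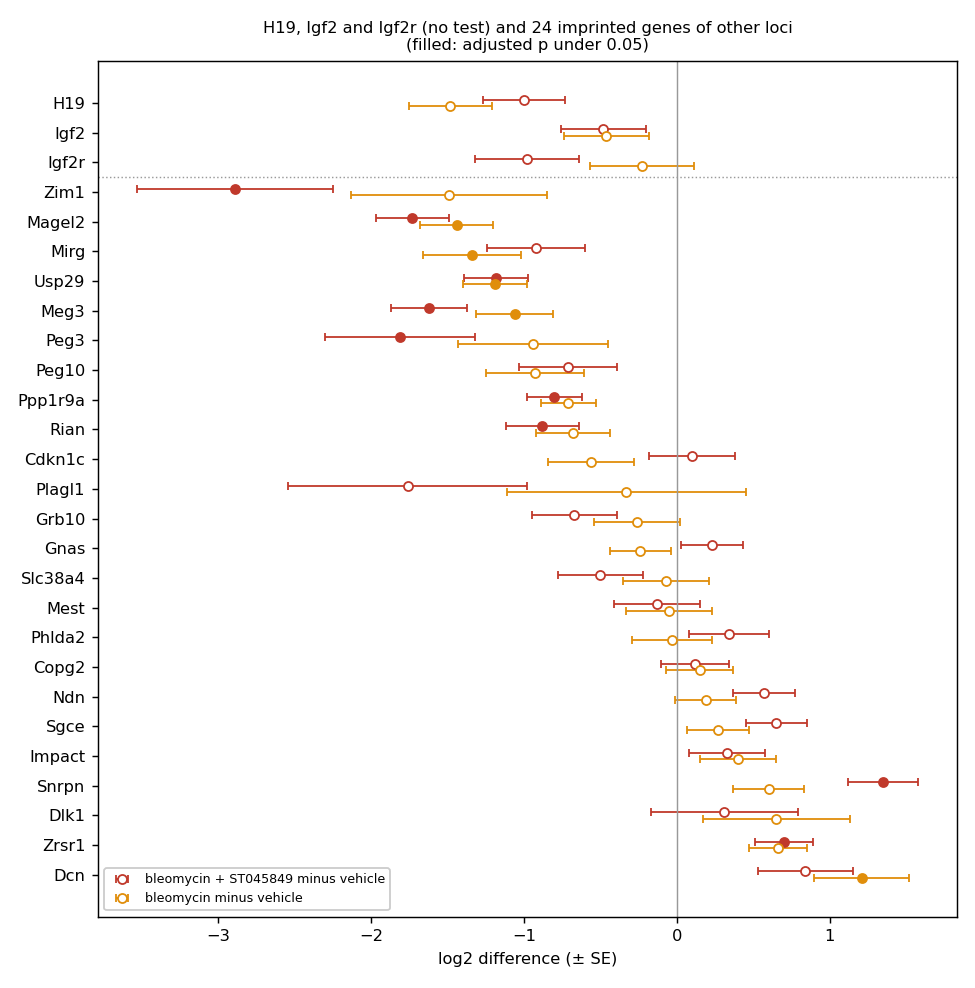
log2 difference ± SE of H19, Igf2 and Igf2r (above the dotted line, no test) and of 24 imprinted genes of other loci, for bleomycin plus ST045849 minus vehicle (red) and bleomycin minus vehicle (orange), with filled symbols at an adjusted p under 0.05. The filled symbols left of 0 are 4 in bleomycin and 7 in bleomycin plus ST045849, and those right of 0 are 1 and 2.

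Of 25 regulators of these loci and their transcripts, 23 were tested. Limma called 0 in bleomycin against vehicle, with 3 at an unadjusted p under 0.05 (17.4% of all tested genes), and 1 in bleomycin plus ST045849 against vehicle, with 7 at an unadjusted p under 0.05 (31.1% of all tested genes). Of all tested genes 4.88% and 9.85% were called in these comparisons. That gene, Igf2bp2, which encodes an RNA-binding protein of Igf2 mRNA, measured 12.4, 8.91 and 10 FPKM in bleomycin plus ST045849 cells, 14.4, 13.8 and 18.4 FPKM in bleomycin cells and 18.2, 27.3 and 25.9 FPKM in vehicle cells. It fell by 1.11 ± 0.22 (adjusted p = 0.0125), and the call was lost without vehicle library 2 or 3 (0.0682 and 0.0644). Plagl1, a zinc finger factor that is itself imprinted and is known to act on H19 and Igf2 in mouse, ranged widely and is named for that with its values known. It measured 220.2, 19.4 and 148 FPKM in bleomycin plus ST045849 cells, 303, 190.3 and 228 FPKM in bleomycin cells and 124, 475 and 446 FPKM in vehicle cells.

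Between bleomycin plus ST045849 and bleomycin, limma called 0 of the 109 related genes tested and 0 of all tested genes (0%). At an unadjusted p under 0.05 stood 20 related genes and 22.5% of all tested genes. When only these 2 groups were fitted, with the replicate number as a block, 4 related genes were higher and 13 lower, among them Igf1r, Insr, Htra1, Peg3 and Plagl1 on the lower side. That fit called 2403 of all 12441 tested genes, 1408 higher and 995 lower. With the gene length trend also removed, 1 related gene was higher and 1 lower, where 125 of all 12432 tested genes were called. Without ST045849 library 1, the fit of the remaining libraries called 13 related genes and 2225 of all 12441.

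The genes whose levels followed the 3 transcripts most closely were found by Pearson's r of log2(FPKM + 1) over the 9 libraries, which share their groups, as a description. For H19 they were Tnni2 (r = 0.965), Gm13194 (0.961), B4galnt2 (0.957), Cdv3 (0.956) and Efhd2 (0.953). After removal of group means these were 0.461, 0.446, 0.862, 0.45 and 0.652, so that much of the likeness lay between groups. For Igf2 they were Sh3bp2 (0.947), Clmn (0.935), Zfp469 (0.924), Alg9 (0.918) and Dusp7 (0.915), and without the 2 libraries farthest in Igf2 these were 0.914, 0.429, 0.525, 0.523 and 0.347. For Igf2r they were Smcr8 (0.994), Pde4dip (0.994), Gm7265 (0.988), Gpatch8 (0.982) and Heatr5a (0.981), and after removal of group means still 0.99, 0.989, 0.976, 0.975 and 0.971. The exons of these 5 cover 8078, 16857, 3502, 8178 and 20676 bases, and their levels, like those of Igf2r, were read in libraries that differ in their gene length slope.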

How the data were processed

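RNA from 9 samples of primary mouse articular chondrocytes was sequenced from TruSeq Stranded mRNA libraries, per the labels' protocols. The submitters' processing notes name Trimmomatic, STAR and the GRCm38 build. The deposited values are FPKM per gene, made by the authors. Which program, annotation, strand setting and denominator gave them is not given in the sources used here. Coordinates, exon lengths and overlaps came from GENCODE vM21, which held 99.4% of the 55450 identifiers. MicroRNA sequences came from RefSeq (GRCm38.p6).

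A single limma 3.58.1 model (R 4.3.3) of log2(FPKM + 1) took in all 9 libraries, with a trended prior (6 residual and 4.95 prior degrees of freedom). The 12441 genes with 1 FPKM or more in 3 or more libraries were kept. P-values were adjusted by Benjamini-Hochberg over them, and a gene was called under 0.05. The method was tested on simulated data. P-values measure only the spread between these libraries, which may be technical. The SE of the ratio comes from the SD pooled over groups.

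The 3 genes and the lists of 132 related genes (131 listed, 109 tested) were chosen with earlier results of these data known. Named genes are, per list and comparison, up to 2 called higher and 2 called lower by adjusted p, otherwise the most abundant member, and Ins2, Igf1, Igf1r, Insr, M6pr, Airn and Cdkn1c, and 5 like genes for each of H19, Igf2 and Igf2r. Genes named outside this rule are those between Tnni2 and Igf2, Mirg, Rian, Zim1, Plagl1, Peg3, the cell type markers and those of the overlap notes.

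Replicate numbers of bleomycin plus ST045849 and bleomycin libraries went together in the data (correlation of deviations 0.466, 0.481 and 0.5), although the labels state no pairing. Those of vehicle did so for number 3 only (-0.071, -0.026 and 0.546 against bleomycin, and -0.519, -0.279 and 0.424 against bleomycin plus ST045849). Alternatives were pseudocounts, filters, scalings, the block, 2-group fits, an untrended prior, removal of the length trend by loess and leaving out each library. Blocked fits of 2 groups were added after seeing the data.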

Additional observations from a re-analysis of the deposited data

How the results depend on the processing

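The direction of every difference in H19 and in the ratio of H19 to Igf2 was the same under all alternatives run, and that of Igf2 between bleomycin plus ST045849 and bleomycin was not. Against vehicle, H19 in bleomycin plus ST045849 was -1.25 under median-of-ratios scaling and -1.26 under quantile normalization and as TPM. Against bleomycin it was 0.13 under quantile normalization, 0.19 as TPM and 0.24 with the length trend removed, with or without a replicate block. Igf2 was -0.18 in bleomycin against vehicle under quantile normalization, and -0.47 (quantile) and -0.3 (TPM) in bleomycin plus ST045849 against bleomycin. The ratio was -1.21 in bleomycin against vehicle under quantile normalization. With the length trend removed it was 0.12 in bleomycin plus ST045849 against bleomycin and -0.87 against vehicle, also with the replicate block, which alone left the ratio unchanged.

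Related genes called in bleomycin against vehicle numbered 11, but 4 with no filter, 7 at a mean of at least 5 FPKM and 20 with the length trend removed and a replicate block. Calls among all tested genes moved as well, from 607 of 12441 to 483 of 30298, 284 of 8015 and 1190 of 12432. In bleomycin plus ST045849 against vehicle they numbered 16, but 8 with no filter and 10 in a fit of 2 groups, where all tested genes gave 1225, 651 and 621. With a replicate block alone they were 13 and 18. Between bleomycin plus ST045849 and bleomycin they numbered 0, but 17 in a fit of these groups with replicate block and 2 with the length trend removed too, where all tested genes gave 0, 2403 and 125. The cause of these shifts was not tested. Under median-of-ratios scaling the median of all tested genes was -0.05 and -0.01 in the comparisons with vehicle, where it was 0.10 and 0.19 as deposited. Related genes called then split into 2 higher and 7 lower in bleomycin and 3 higher and 11 lower in bleomycin plus ST045849, where they split into 5 and 6, and 7 and 9, as deposited. Leaving out 1 library in turn gave 3 to 15 called in bleomycin against vehicle (3 to 6 without any 1 bleomycin or vehicle library), 6 to 30 in bleomycin plus ST045849 against vehicle (30 without ST045849 library 1, 6 and 7 without vehicle library 2 and 3) and 0 to 13 between the bleomycin groups (13 without ST045849 library 1). Of all tested genes, 184 to 829 were called in bleomycin against vehicle (184 to 334 without any 1 bleomycin or vehicle library). In bleomycin plus ST045849 against vehicle 3060 were called without ST045849 library 1, and 286 and 351 without vehicle library 2 and 3. Between the bleomycin groups 0 to 2225 were called, the last without ST045849 library 1. The ratio stayed at -1.06 to -0.95, -0.59 to -0.42 and 0.43 to 0.6 in these comparisons.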

Other observations

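Rows that share exon bases with H19 were read beside it. Mir675 was listed at 0.126 to 0.163 FPKM in all 9 libraries, a row of 84 bases that a poly(A) library does not measure as a mature microRNA. Gm27483 and Gm27786 are short RNA annotations on the strand opposite H19, and share 2.89 and 2.85% of its exon bases. Gm27483 measured 12.5, 13.4 and 4.89 FPKM in bleomycin plus ST045849 libraries, 10.4, 9.48 and 2.44 FPKM in bleomycin libraries and 25.6, 15.3 and 7.93 FPKM in vehicle libraries. Gm27786 measured 11.7, 7.64 and 8.22 FPKM in bleomycin plus ST045849 libraries, 9.04, 11.9 and 1.73 FPKM in bleomycin libraries and 19.7, 25.1 and 7.66 FPKM in vehicle libraries. The groups overlapped in both rows, and since the use of strand in counting is not given, reads of H19 and of these rows cannot be told apart.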
